A study of Procambarus virginalis with 3 samples.

Results

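Accessible regions that lay close together in small groups were examined in blood cells (hemocytes) of *Procambarus virginalis*, the marbled crayfish, which reproduces clonally. Peaks of the ATAC-seq map were sorted along the scaffolds of the draft genome and joined into a run when the gap between them was 2000 bp or less. The peaks described here were selected on their position and length: each was shorter than 1000 bp and belonged to a run of 3 or more peaks of any length. This gave 8324 of 89155 peaks (9.34%, exact binomial 95% interval 9.15 to 9.53%). The measured values behind this choice were the borders of the peaks, so the closeness of these peaks is a property of the choice and not a result.

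All samples belonged to 1 group. Hemocytes were taken from 3 independent wild-caught animals, 1 library was made per animal from 50000 cells, and no treatment or second group was compared. Every value below comes from 1 peak list of the 3 libraries merged. Values of single animals were not analysed here, so the error between animals is unknown. Quartiles describe the spread over peaks or runs, and 95% intervals cover counting error only, since neighbouring peaks are not independent. Run membership and fold enrichment both derive from the same peak detection, so differences in fold enrichment are given as descriptions without a test.

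Hemocytes are the circulating blood cells of crustaceans, and they carry out clotting, phagocytosis and other parts of the innate immune response. In ATAC-seq, the Tn5 transposase inserts adapters where DNA is not wrapped tightly around nucleosomes, and active promoters and enhancers typically appear as short accessible regions. In other animals, promoters and several enhancers of 1 gene can lie within a few kilobases of each other, so that a group of close peaks may belong to 1 regulatory domain. Whether that holds for the groups described here was not tested. Gene positions and sequence were not used here, so it is not stated whether the runs lie in promoters, exons, introns or between genes.

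The merged list contained 2620 runs of 3 or more peaks, on 2344 of the 30666 scaffolds that carried any peak. Most runs were small. Exactly 3 peaks were found in 1910 runs (72.9%), 4 peaks in 472 runs (18%) and 5 peaks in 141 runs (5.38%). Only 97 runs (3.70%) had 6 or more peaks, and 23 runs had 8 or more. The largest run had 17 peaks. A single run was present on 2120 scaffolds, 183 scaffolds carried 2 runs and 41 scaffolds carried 3 or more, with at most 5 runs on a scaffold. In 314 cases the run comprised every peak of its scaffold. The 8324 short peaks covered 2.40 Mb, which was 7.85% of the length covered by all peaks. Their share of the summed product of fold enrichment and length was smaller, at 4.93%.

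The runs also contained 693 peaks of 1000 bp or more, which counted towards run size but are not among the 8324 short peaks. All peaks were short in 2069 runs, and at least 1 long peak was present in the other 551. Runs with a single short peak numbered 40, and 2 runs had none.

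A run typically extended over about 3 kb. The median span was 3014 bp (interquartile range 2263 to 4151 bp), and peaks covered a median of 35.7% of it (25.3 to 49.6%). The span was 2685 bp in runs of 3 peaks (2054 to 3382 bp), 4010 bp in runs of 4 (3235 to 4833 bp) and 11366 bp in runs of 8 or more (9775 to 14925 bp). The largest runs were also the most densely covered, with a median of 48.8% of the span inside peaks (45.4 to 58.2%). The median gap within all runs was 706 bp (422 to 1187 bp), compared with 773 bp (454 to 1265 bp) in runs of only 2 peaks. Gaps of 257 to under 500 bp made up 33.6% of the gaps in runs of 3 or more and 29.5% of the gaps in runs of 2. The list contained no gap under 257 bp, which is a lower limit of the list itself. In runs of 8 or more peaks, the median gap was 556 bp (374 to 913 bp).

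**Figure D1:**
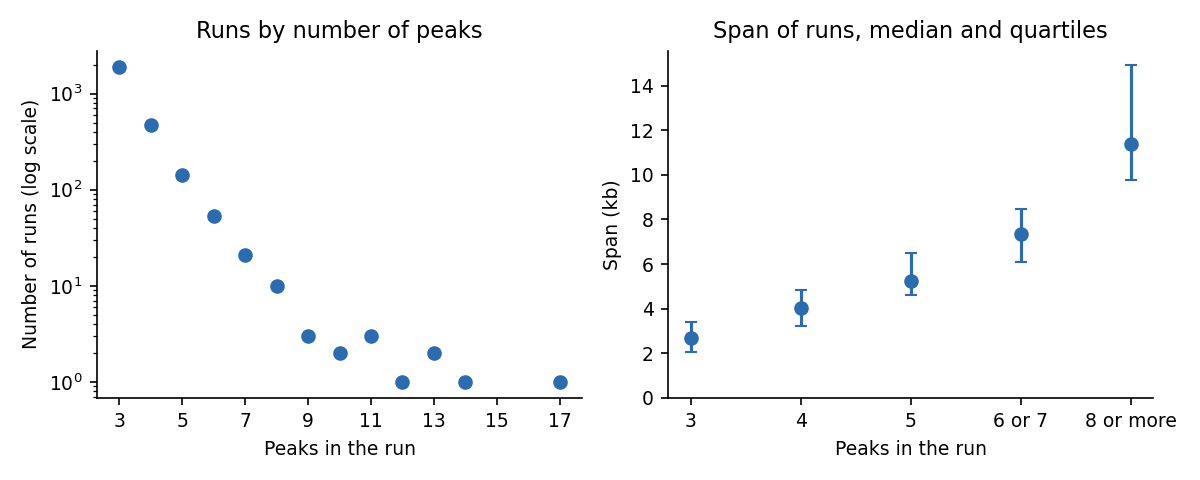
Left, number of runs (log scale) against the number of peaks in the run; each point is 1 run size. Right, median span in kb with quartiles (bars) for runs grouped by their number of peaks. Runs of 3 peaks dominated (1910 of 2620), and the median span was 2685 bp there and 11366 bp in runs of 8 or more.

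Spacing within a run was uneven. In runs of 3 peaks, the larger gap was a median of 1.76 times the smaller one (interquartile range 1.29 to 2.70). It was more than 2 times as large in 787 of 1910 runs (41.2%, 95% interval 39.0 to 43.4%).

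Peaks near the limits of the choice had the following values. Peaks in runs that were less than 100 bp below the length limit had a median fold enrichment of 5.05 (interquartile range 3.64 to 10.1, n = 137), and those at or less than 100 bp above it, just outside the choice, had 5.22 (3.12 to 9.47, n = 118). Fold enrichment is the ratio of overlapping fragments to the background estimated by the peak caller. Short peaks on both sides of a gap in the last 100 bp up to the gap limit had a median fold enrichment of 4.18 (451 gaps), and those beside a gap in the first 100 bp past it had 3.92 (400 gaps). These gaps were taken without regard to run size, so the first value includes runs of 2 peaks. Peaks beside a gap past the limit can also belong to a run through their other neighbour. The gap values therefore do not separate peaks inside the choice from peaks outside it. By number of peaks, the limit lay between runs of 3, whose short peaks had a median of 3.72 (95% interval 3.67 to 3.78), and runs of 2, with 3.92 (3.89 to 3.96).

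The strength of the peaks in runs was then compared with that of other short peaks. Peaks in runs were weaker than peaks without a close neighbour. Their median fold enrichment was 3.63 (interquartile range 2.93 to 5.52, 95% order-statistic interval of the median 3.59 to 3.68, n = 8324). It was 3.92 in runs of 2 peaks (3.05 to 6.18, interval 3.89 to 3.96, n = 19256) and 4.25 in lone peaks with no neighbour within 2000 bp (3.2 to 7.12, interval 4.22 to 4.27, n = 57819). The ratio of the medians was 0.855 against lone peaks and 0.925 against runs of 2. The interquartile ranges overlapped widely. The 95% intervals of the 3 medians were separate. When only peaks with a −log10 q (the caller's significance after correction for multiple testing) of 5 or more or a fold enrichment of 4 or more were used to build the runs, the bounds of the ratio against lone peaks included 1 (0.958, 0.912 to 1.01, and 0.972, 0.929 to 1.03).

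Both ends of the distribution differed in the same direction. A fold enrichment of 10 or more was reached by 879 peaks in runs (10.6%, 95% interval 9.91 to 11.2%) and by 9211 lone peaks (15.9%, 15.6 to 16.2%). Values of 50 or more were found for 55 peaks in runs (0.661%, 0.498 to 0.859%) and for 663 lone peaks (1.15%, 1.06 to 1.24%). At the lower end, 678 peaks in runs stayed below a fold enrichment of 2.6 (8.15%, 7.57 to 8.75%), and so did 2314 lone peaks (4.0%, 3.84 to 4.17%). The median −log10 q was 4.70 in runs (2.46 to 12.3) and 6.92 in lone peaks (3.26 to 19.8).

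The lower fold enrichment was not accompanied by shorter peaks. The median length was 218 bp in runs (interquartile range 119 to 397 bp), 197 bp in runs of 2 peaks (114 to 354 bp) and 192 bp in lone peaks (113 to 342 bp). Within each length class, peaks in runs had the lowest median of the 3 groups. For peaks under 100 bp it was 3.13 in runs, 3.29 in runs of 2 and 3.45 in lone peaks. For peaks of 200 to under 500 bp it was 3.97 in runs, 4.52 in runs of 2 and 5.17 in lone peaks. The gap was widest for peaks of 500 to under 1000 bp, with 4.59 in runs (interval 4.44 to 4.84, n = 1345) and 6.62 in lone peaks (interval 6.43 to 6.81, n = 6940).

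The comparison was repeated within scaffolds. On 1892 scaffolds that carried both kinds of peak, the median of the scaffold medians was 3.73 for peaks in runs and 4.35 for lone peaks. The value of the peaks in runs was the lower one on 1171 of these scaffolds (61.9%, 95% interval 59.7 to 64.1%), and the median ratio was 0.871.

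To establish the depth behind these values, the most frequent fold enrichment of 2.46 and its −log10 p of 3.15 were matched to whole fragment numbers. The pair was met by a pileup of 11 fragments over a background of 3.88, so that each fragment adds 0.205 to the fold enrichment. This reading assumes that the merged list came from 1 call on pooled reads with 1 background, which the sources used here do not state. The median peak in runs then represented a mean overlap of 16.7 fragments and the median lone peak one of 19.7 fragments. For 17 fragments at a single position, the exact 95% Poisson interval was 9.90 to 27.2 fragments, equivalent to a fold enrichment of 2.23 to 5.78. The order of single weak peaks within a run may therefore be poorly determined. Fold enrichment is averaged over a peak, however, so this interval is not the error of a whole peak's value. Medians over many peaks carry less counting error, but they depend on the lowest value that was called, which was 2.46 in all groups.

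The background applied to the peaks was examined in the same way. For peaks with a fold enrichment under 3, the deposited −log10 p exceeded the value predicted from the common background by a median of 0.410% in runs (5th to 95th percentile 0.000429 to 1.43%, n = 2352) and 0.467% in lone peaks (0.0480 to 1.38%, n = 10572). Under the assumption of 1 call, the weak peaks of both groups thus had values close to those predicted from 1 common background. That background was itself matched to the most frequent value of the same list. Stronger peaks, among them those at the medians of both groups, were not examined in this way.

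The strength of the short peaks declined further with the number of peaks in a run. Peaks of 1000 bp or more, with a higher median fold enrichment of 6.21 in runs, were left out here. At least 1 of them was present in 16.4% of runs of 3 and in 91.3% of runs of 8 or more. Whether a decline exists over all peaks of a run was not examined. The median fold enrichment of short peaks was 3.72 in runs of 3 (95% interval 3.67 to 3.78), 3.62 in runs of 4 (3.54 to 3.72), 3.54 in runs of 5 (3.39 to 3.76), 3.25 in runs of 6 or 7 (3.11 to 3.38) and 2.97 in runs of 8 or more (2.86 to 3.07). The intervals for runs of 3, 4 and 5 overlapped between neighbouring sizes, and those for runs of 5, 6 or 7 and 8 or more did not. These intervals count each peak separately, although peaks of 1 run are not independent. The 178 peaks in runs of 8 or more came from only 23 runs. The share of peaks that reached a fold enrichment of 10 was 11.4% in runs of 3 and 3.93% in runs of 8 or more (7 of 178 peaks, interval 1.60 to 7.93%). Peak length changed in the opposite direction, with a median of 212 bp in runs of 3 (interval 206 to 217 bp) and 333 bp in runs of 8 or more (288 to 401 bp).

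**Figure D2:**
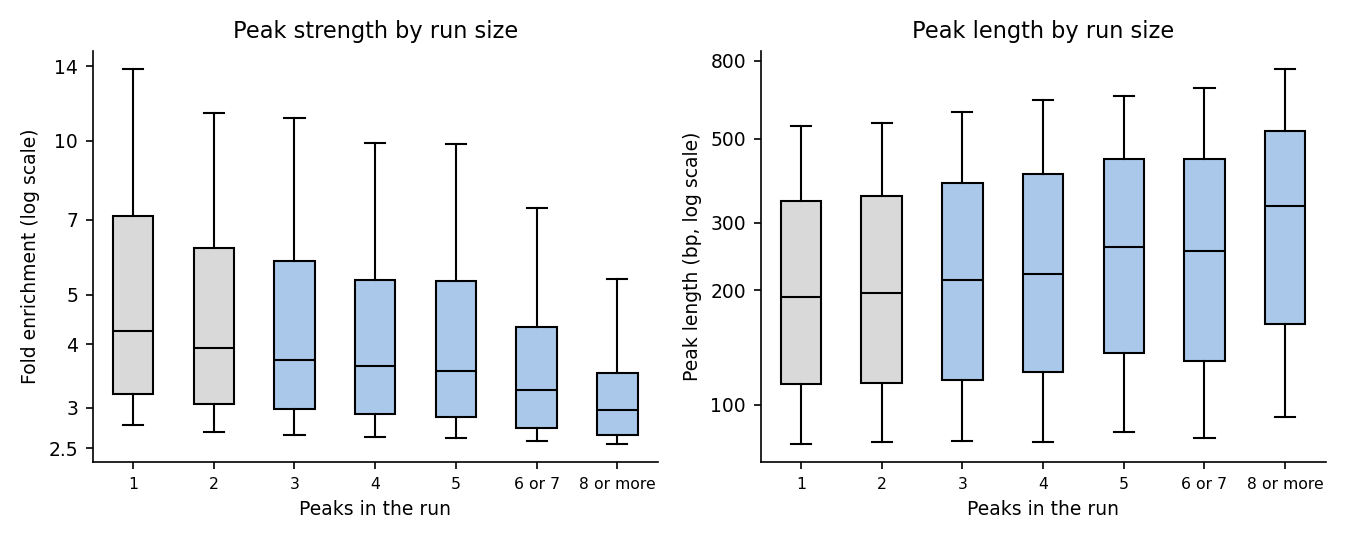
Fold enrichment (left) and length in bp (right) of peaks under 1000 bp, both on log scales, against the number of peaks in the run, where 1 is a lone peak. Lines in boxes are medians, boxes are quartiles and whiskers are the 10th and 90th percentiles over peaks; grey marks runs of 1 and 2 and blue marks runs of 3 or more. The median fold enrichment was 4.25 for lone peaks, 3.72 in runs of 3 and 2.97 in runs of 8 or more, while the median length was 192 bp, 212 bp and 333 bp.

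This order was also present at a fixed length. Among peaks of 200 to under 500 bp, the median fold enrichment was 4.23 in runs of 3 (interval 4.09 to 4.38, n = 2042). It was 3.81 in runs of 4 (3.63 to 4.01, n = 648) and 3.77 in runs of 5 (3.47 to 4.12, n = 245). Larger runs had 3.24 with 6 or 7 peaks (3.08 to 3.51, n = 149) and 2.99 with 8 or more (2.82 to 3.24, n = 71). At this length, the interval for runs of 5 overlapped those for runs of 4 and of 6 or 7. The intervals for runs of 6 or 7 and of 8 or more overlapped as well. When whole runs were counted instead of peaks, the median over runs of the run's own median fold enrichment was 3.77 for runs of 3 (n = 1908, leaving out 2 without a short peak), 3.24 for runs of 6 or 7 (n = 74) and 3.01 for runs of 8 or more (n = 23). Every short peak had a fold enrichment under 4 in 439 of 1908 runs of 3 (23.0%, interval 21.1 to 25%), 89 of 472 runs of 4 (18.9%, 15.4 to 22.7%), 22 of 141 runs of 5 (15.6%, 10.04 to 22.7%), 16 of 74 runs of 6 or 7 (21.6%, 12.9 to 32.7%) and 9 of 23 runs of 8 or more (39.1%, 19.7 to 61.5%). These shares had no steady order, and the intervals overlapped. The strongest short peak of a run did not decline steadily either, with medians of 6.14 in runs of 3, 6.60 in runs of 4, 7.37 in runs of 5, 5.40 in runs of 6 or 7 and 5.22 in runs of 8 or more. A run with more peaks has more chances of a high value.

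Central and outer peaks were compared in the 1596 runs that consisted of exactly 3 short peaks. The central peak tended to be the weaker one. Its median fold enrichment was 3.59 (95% interval 3.47 to 3.69), compared with 3.74 for the first peak (3.63 to 3.87) and 3.88 for the last peak (3.76 to 4.02) along the scaffold. The central peak was the strongest of the 3 in 455 runs (28.5%, interval 26.3 to 30.8%), whereas the first was strongest in 568 runs (35.6%, 33.2 to 38.0%) and the last in 573 runs (35.9%, 33.5 to 38.3%). An equal distribution over the places would give 33.3%. The central peak was the weakest in 599 runs (37.5%, 35.1 to 40.0%). Its fold enrichment was below the mean of the outer peaks in 984 runs (61.7%, 59.2 to 64%), but the mean is raised by a single strong peak. It was below both outer peaks in 598 runs (37.5%, 35.1 to 39.9%). The differences between the medians amount to less than 2 overlapping fragments, since each fragment adds 0.205. When long peaks were allowed among the 3, the central peak was the strongest in 541 of 1910 runs (28.3%, 26.3 to 30.4%).

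The central peak also had the lowest median length. It was 198 bp for the central peak (interval 186 to 212 bp), 213 bp for the first (204 to 224 bp) and 209 bp for the last (200 to 219 bp). The length intervals of all 3 places overlapped. For fold enrichment, the intervals of the central and the first peak also overlapped, and those of the central and the last peak did not.

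Runs of 4 short peaks showed the same order. Inner peaks had a median fold enrichment of 3.47 (interval 3.36 to 3.6) and outer peaks 3.79 (3.65 to 4.01). An outer peak was the strongest in 203 of 342 such runs (59.4%, interval 53.9 to 64.6%), where equal places would give 50%. In the 91 runs of 5 short peaks, the medians were 3.51 for inner peaks (3.32 to 3.76) and 3.76 for outer peaks (3.4 to 4.09). An outer peak was the strongest in 43 of these (47.3%, 36.7 to 58.0%), and this interval included the 40% for equal places. Over all runs, inner peaks had a median of 3.42 (3.38 to 3.47, n = 3450) and outer peaks 3.80 (3.74 to 3.87, n = 4874), although the inner peaks come to a greater part from large runs.

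**Figure D3:**
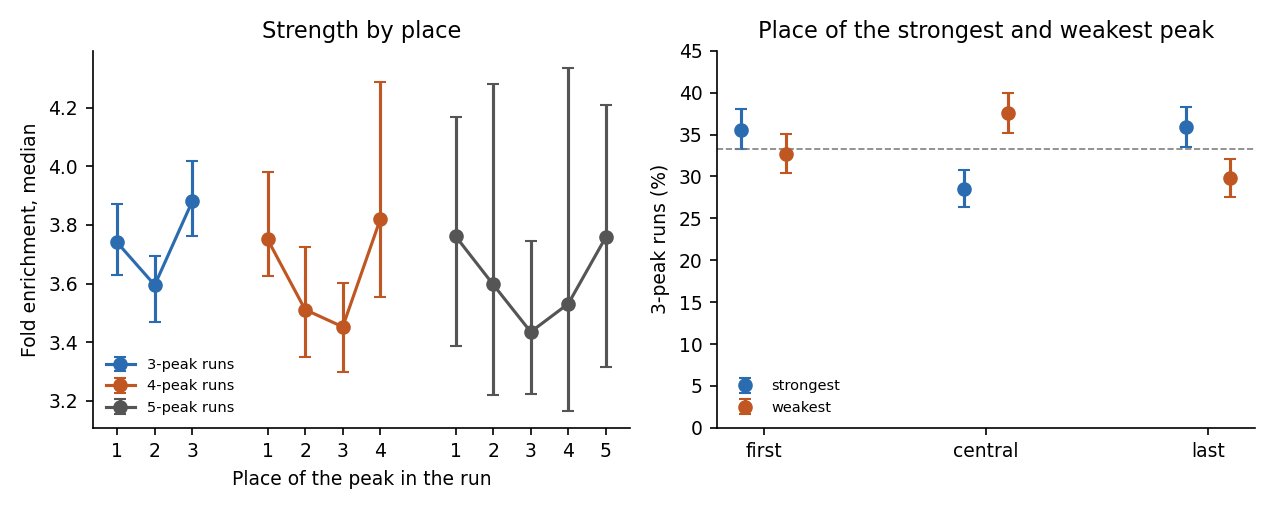
Left, median fold enrichment with its 95% order-statistic interval by place along the scaffold, for runs of exactly 3, 4 and 5 peaks that were all under 1000 bp. Right, percentage of the 1596 runs of 3 in which the peak at each place was the strongest or the weakest, with exact 95% intervals; the dashed line is 33.3%. The central peak was the strongest in 28.5% of the runs and the weakest in 37.5%.

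Peaks of 1 run differed widely in strength. In the runs of 3 short peaks, the strongest peak had a median fold enrichment of 6.48 (interquartile range 4.37 to 11.2), the middle one 3.74 (3.13 to 4.93) and the weakest 2.90 (2.65 to 3.33). The strongest exceeded the middle one by a median factor of 1.49, and the middle exceeded the weakest by 1.21. Ordering 3 values gives factors above 1 even for alike peaks, and the spread includes counting error. A fold enrichment of 4 or more was reached by all 3 peaks in 179 runs (11.2%, 95% interval 9.71 to 12.9%), by exactly 2 in 498 runs (31.2%, 28.9 to 33.5%), by 1 in 601 runs (37.7%, 35.3 to 40.1%) and by none in 318 runs (19.9%, 18 to 22.0%). Across all 2578 runs with at least 2 short peaks, the highest fold enrichment was more than 2 times the lowest in 1316 (51.0%) and more than 5 times in 388 (15.1%).

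**Figure D4:**
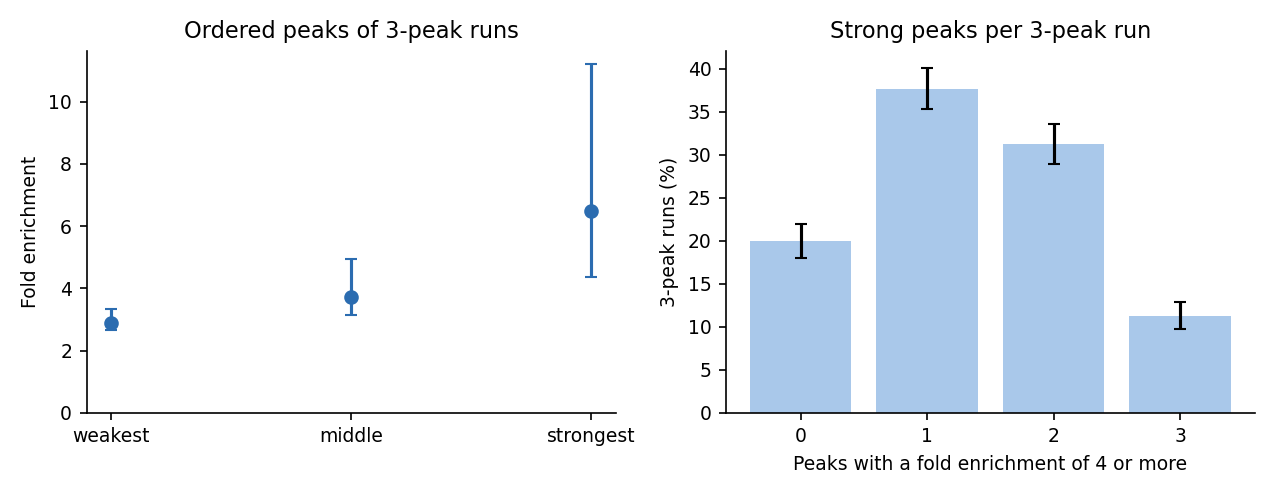
Left, fold enrichment of the weakest, middle and strongest peak in the 1596 runs of 3 short peaks; points are medians and bars quartiles over runs. Right, percentage of these runs in which 0, 1, 2 or 3 peaks had a fold enrichment of 4 or more, with exact 95% intervals. The strongest peak had a median of 6.48 and the weakest 2.90, and a single peak at 4 or more was the most frequent case (37.7%).

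Most of the variation lay within runs. When the variance of log2 fold enrichment was divided into parts between and within runs, 9.78% lay between runs (interval 7.56 to 12.1% under a normal model, 2578 runs with 8284 peaks). The SD was 0.28 between runs and 0.85 within runs on the log2 scale. The part between runs was 7.23% for runs of 2 short peaks (interval 5.19 to 9.25%), and 4.90% lay between scaffolds for lone peaks of the same scaffold (interval 3.96 to 5.85%). For log2 length, 6.02% of the variance lay between runs of 3 or more (interval 3.87 to 8.23%). Adjacent short peaks of a run had a Pearson's r of 0.104 for log2 fold enrichment over 5452 pairs, which share libraries and depth, and the coefficient was 0.0278 for 9967 adjacent pairs that were 20000 bp or more apart. Between gap classes it varied from 0.0405 for gaps of 1500 to 2000 bp (792 pairs) to 0.133 for gaps of 1000 to under 1500 bp (1079 pairs), with no order by distance. Correlations of this size are given as a description of sparse data.

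Long peaks inside runs were stronger than the short peaks beside them. The 693 peaks of 1000 bp or more in runs had a median fold enrichment of 6.21 (interquartile range 3.75 to 14.4) and a median length of 1490 bp, while long peaks outside runs had a higher median fold enrichment of 9.75 (5.37 to 20.0, n = 3063). Short peaks directly next to a long peak had a median of 3.35 (95% interval 3.24 to 3.45, n = 828). Short peaks in runs with a long peak, but not directly next to it, had 3.50 (3.36 to 3.67, n = 633). Short peaks in runs without a long peak had 3.69 (3.64 to 3.74, n = 6863). The interval of the peaks not directly next to a long peak overlapped both others. Whether the lower value goes with lying beside a long peak or with being in such a run was not tested. The short peaks next to a long one were slightly longer, with 261 bp (interval 242 to 286 bp) against 212 bp (207 to 217 bp) in runs without a long peak. At least 1 long peak was present in 312 of 1908 runs of 3 (16.4%) and in 21 of 23 runs of 8 or more (91.3%, interval 72.0 to 98.9%). A large run has more peaks that can be long, so these shares rise with run size in part by counting. The share of long peaks among all peaks was not computed by run size. The part due to counting is therefore not known.

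Individual runs illustrated these differences. Scaffold names are those of the draft assembly, and the first base is position 1. The run with the most peaks covered positions 9141 to 39885 of scaffold323980. Its 17 peaks filled 70.6% of 30745 bp, and 7 of them were 1000 bp or longer, up to 6494 bp. The 10 short peaks had fold enrichments of only 2.46 to 3.28. The highest value in this run was 4.05, for its last and longest peak. For comparison, the lowest fold enrichment was 2.46 for the short peaks in runs, and likewise for those in runs of 2 and for lone peaks. It was also the most frequent value of the list. Values close to it thus lie at the lower limit of the list itself. The run on scaffold98661 (20280 to 40209) had 14 peaks, with fold enrichments of 2.55 to 3.64 for its 11 short peaks and a highest value of 5.38 for a long peak (36510 to 37657). On scaffold23724 (58247 to 71595), 13 peaks were found, and the 10 short ones had fold enrichments of 2.46 to 3.86. Here a long peak in the middle (65642 to 67163) stood out with 7.35.

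The longest run, on scaffold8003 (16689 to 50847, 34159 bp), was more varied. It contained 13 peaks. The 7 short ones had fold enrichments between 2.65 and 13.1, and the strongest peak was a long one at 38705 to 40432 with 41.5. The short peak of 13.1 (38010 to 38361) lay 343 bp before it. The third longest run, on scaffold175695 (2 to 22329), consisted mainly of 1 long peak of 17812 bp with a fold enrichment of 6.0. It was followed by 3 short peaks with 2.68, 18.8 and 3.85.

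The runs with the highest median fold enrichment were small. On scaffold22629 (43684 to 47465), the first 2 of 3 peaks had fold enrichments of 83.3 and 54.4 and lengths of 332 and 338 bp, and the third had 3.36. On scaffold49093 (8867 to 14793), 4 of 5 peaks were strong, with fold enrichments of 147, 41.8, 53.6 and 176, and the third peak of 81 bp had only 2.67. The 3 peaks at the start of scaffold32687 (1 to 3003) had 71.0, 17.7 and 45.3, and they were the only peaks of that scaffold. A fold enrichment of 50 was reached by 55 of the 8324 short peaks (0.661%), compared with 1.15% of lone peaks. The number of runs with several such peaks was not counted.

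The widest contrast within a run was found on scaffold17512 (43078 to 47538). Its central peak of 662 bp had a fold enrichment of 571, which was the highest of all short peaks in runs, and its neighbours had 2.47 and 7.91. On scaffold4192 (9634 to 14713), the first peak had 297 and was followed by short peaks with 2.65 and 2.88 and by a long peak with 3.81. In contrast, the run closest to the median span and median fold enrichment of all runs of 3 was found on scaffold145566 (16999 to 19718, 2720 bp). It was not typical in other traits. Its peaks covered 49.0% of the span, against a median of 34.9% in runs of 3. Its central peak was the strongest, as in only 28.5% of the runs of 3 short peaks. Its peaks were 127, 753 and 452 bp long with fold enrichments of 3.15, 4.87 and 3.77, separated by gaps of 299 and 1089 bp.

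**Figure D5:**
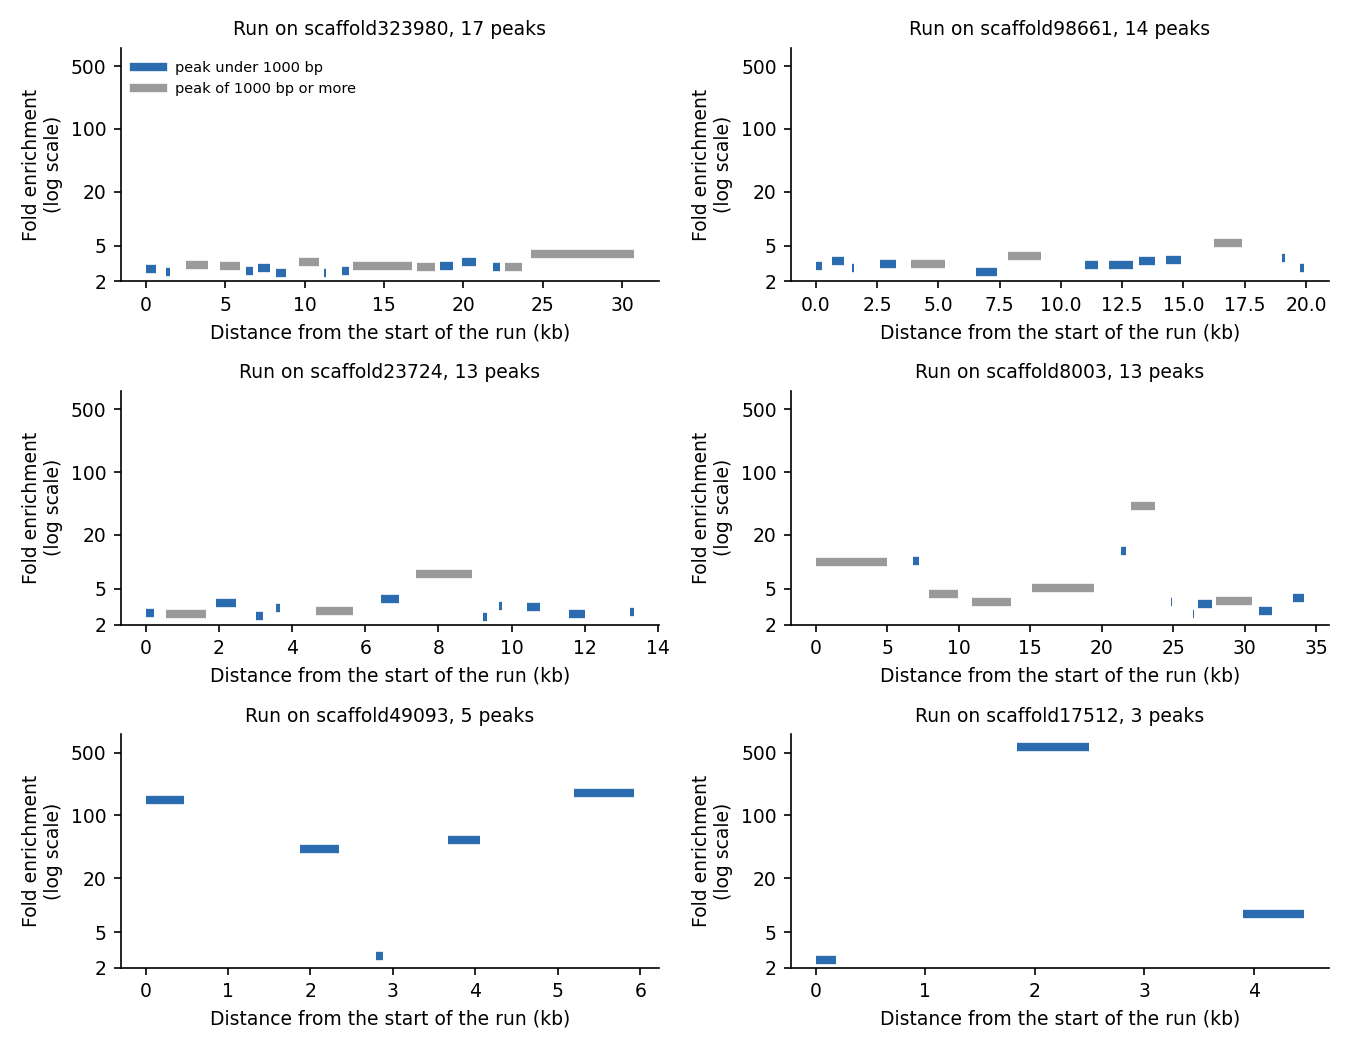
Peaks of 6 runs, drawn as bars from their start to their end in kb from the start of the run (x axis, to scale within each panel) at their fold enrichment (y axis, log scale, the same in all panels). Blue bars are peaks under 1000 bp and grey bars are longer peaks. The short peaks of the runs with 17 and 14 peaks stayed between 2.46 and 3.64, whereas those on scaffold49093 reached 176 and the central peak on scaffold17512 reached 571.

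Finally, the position of the runs on their scaffolds was examined. Scaffolds with a run carried a median of 7 peaks (interquartile range 5 to 10), and 867 runs (33.1%) were on scaffolds with 10 or more peaks. Only 265 of the short peaks in runs (3.18%, 95% interval 2.82 to 3.58%) started in the first 1000 bp of a scaffold, against 7197 lone peaks (12.4%, 12.2 to 12.7%). Short peaks in runs of 2 lay between, with 7.34% (6.97 to 7.72%). A peak at the end of a scaffold can have close neighbours on 1 side only, so a lower share in runs follows in part from the definition. The window from 8000 to 9000 bp contained 2.81% of the short peaks in runs (2.47 to 3.19%) and 2.33% of the lone peaks (2.21 to 2.46%). This window was fuller in both groups than those from 4000 to 5000 bp, with 1.43% of the short peaks in runs and 0.834% of the lone peaks, and from 12000 to 13000 bp, with 1.35% of the short peaks in runs and 1.09% of the lone peaks. The order of the groups was the opposite in the last 500 bp before 20000 bp. That window held 0.733% of the short peaks in runs (0.561 to 0.940%) and 1.67% of the lone peaks (1.57 to 1.78%). It is narrower than the windows of 1000 bp, so its shares cannot be set beside theirs. Scaffold lengths were not considered. Of the 2620 runs, 244 began within the first 1000 bp of a scaffold (9.31%, 8.23 to 10.5%). Among them were 8 of the 23 runs with 8 or more peaks (34.8%, 16.4 to 57.3%). In the first 1000 bp, peaks in runs had a median fold enrichment of 3.58 (interval 3.39 to 3.80), and beyond it they had 3.63 (3.59 to 3.68). These intervals overlapped. Lone peaks were stronger in the first 1000 bp, with 4.65 (4.56 to 4.75) against 4.20 (4.17 to 4.22) beyond it.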

How the data were processed

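ATAC-seq libraries were made from about 500 µL of hemolymph per animal, with 50000 hemocytes and a transposase reaction of 20 min. Per the study's methods, the authors trimmed reads (Trim Galore), aligned them (Bowtie2), removed duplicates (samtools), called broad peaks (MACS2) and pooled the 3 libraries. The sources used here name no caller settings, assembly version or shift of insertion sites, and a shift would move borders by a few bases. The authors deposited 1 list with peak positions, a fold enrichment (linear ratio, averaged over the peak) and the −log10 of p- and q-values. Read totals per library were not used.

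Runs, members and summaries were computed in Python 3.11.15 with pandas 2.3.3, numpy 2.4.6 and scipy 1.17.1, and figures were drawn with matplotlib 3.10.9. The run builder and the variance split were tested on simulated data. Medians have order-statistic 95% intervals and shares exact Clopper-Pearson intervals. Variance was split by a 1-way random model (F interval). Fragment numbers assume 1 call with 1 background, a pseudocount of 1 and a Poisson upper tail. Runs named are the 3 with the most peaks (ties by more members, then smaller span) and the 3 with the highest median fold enrichment. Named as well are the 3 with the largest span and the 2 with the largest ratio of highest to lowest member. The last is the run of 3 nearest to the median span and median fold enrichment. Members, rules and alternatives were chosen with earlier results of these data known. No genome or annotation was used, so no sequences are shown.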

Additional observations from a re-analysis of the deposited data

How the results depend on the processing

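Each of 6 main values was recomputed under 10 alternative settings, and 34 of the 60 values stayed within 1.5 times the main count or within the 95% interval of the main value. Run size counts peaks of any length, so the number of runs could not change with the length limit of members. It was 2620 by construction for members of any length and for members under 500 bp, and both values are among the 34. The number of peaks in runs (8324) became 3990 and that of runs (2620) became 1322 for a gap of 1000 bp or less. They were 1498 and 526 when −log10 q had to reach 5, 1090 and 390 when fold enrichment had to reach 4, and 4195 and 1436 when peaks closer than 500 bp were merged. A minimum −log10 q of 2 left 5457 peaks in runs. The median fold enrichment of 3.63 became 3.51 and 3.71 for gaps of 1000 and 3000 bp, 4.04 and 5.83 for a minimum −log10 q of 2 and 5, 6.41 for a minimum fold enrichment of 4, 3.69 after merging, 3.72 with members of any length and 3.51 with members under 500 bp. Filters on −log10 q and fold enrichment raise it by construction.

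The ratio of the median to that of lone peaks (0.855) stayed under 1 in all 10 settings. It was 0.835 and 0.871 for gaps of 1000 and 3000 bp, 0.890 and 0.958 for a minimum −log10 q of 2 and 5, 0.972 for a minimum fold enrichment of 4 and 0.871 after merging. Its bounds, taken from the intervals of both medians, included 1 for a minimum −log10 q of 5 (0.912 to 1.01) and a minimum fold enrichment of 4 (0.929 to 1.03). These filters remove weak peaks and also regroup the others into smaller runs or lone peaks, and the part of each was not tested. The share of runs of 3 with the central peak strongest (28.5%) stayed under 33.3% in all settings, with 30.9% for a minimum −log10 q of 5. Its interval there (25.9 to 36.2%), and for a minimum fold enrichment of 4 (22.5 to 34.2%), included 33.3%. The part of the variance between runs (9.78%) became 12.3% for a minimum −log10 q of 5 and 15.2% for a minimum fold enrichment of 4. The 3 libraries could not be left out 1 at a time from a pooled list. No paired analysis was possible because all samples belong to 1 group and the result comes from no test.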

Other observations

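Runs on the same or on different scaffolds were also compared with each other by the lengths of their peaks and gaps, in both orientations. Among 1945762 pairs of runs with the same number of peaks, no pair had all lengths and gaps alike within 5 bp, and 3 pairs were alike within 20 bp. Repeated copies of a run with the same borders were thus not detected in the peak list. Copies with shifted borders would not be found in this way, and sequence was not used.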
